A study of Mus musculus with 6 samples.

Results

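The genes described here encode the protein factors that start and extend translation on cytosolic ribosomes. They were chosen with earlier results of these data known, by a rule on names. The rule took every symbol that begins with Eif and a digit from 1 to 6 or with Eef and 1 or 2. It left out the Eif2ak kinases and pseudogene names with "-ps". That gave 67 of the 32479 rows of the table, of which 60 had a mean of at least 1 FPKM, a fragment count divided by gene length and by library size, and were tested. The 7 others, Eif4ebp3, Eif5a2, Eef1akmt3, Eef1aknmt, Eif4a3l1, Eif4a3l2 and Eif2c5, averaged under 1 FPKM. Eif2c5 carries the older name of an Argonaute gene and is caught by its spelling; it was listed at 0 in every library.

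The RNA came from hearts of C57BL/6J mice, 3 given carbon tetrachloride (CCl4), a solvent that scars the liver on repeated dosing, and 3 control mice. Each of the 6 libraries was labelled as primary cardiac fibroblasts. The design asks how liver cirrhosis acts on the heart. The labels and design text state neither dose, route and duration of CCl4 nor the age and sex of the mice or the way the fibroblasts were isolated, and no liver data were used. Eif2s3y and Ddx3y, genes of the Y chromosome, had 10.41 to 12.91 FPKM and 8.63 to 15.02 FPKM over the 6 libraries.

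The label of the cells stood against strong heart muscle signal. Summed FPKM of 10 cardiomyocyte markers was 12879 to 14274 in CCl4 and 10936 to 12933 in control libraries, with 1 of the 10, Myl2, called higher in CCl4. The sum of 10 fibroblast markers was 555 to 561 in CCl4 and 442 to 718 in control libraries, with 4 called higher, the collagens Col1a1, Col1a2 and Col3a1 and the proteoglycan Lum. Red cell genes were called higher in CCl4 in 5 of 5, with sums of 2231 to 4092 FPKM against 537 to 2268 FPKM in control libraries. The groups overlapped in Alas2 and Hbb-bs, where control replicate 1 lay above CCl4 replicate 1 (749.24 against 682.17 FPKM for Hbb-bs). Of 9 endothelial markers 1 was called higher, of 9 leukocyte markers 1 of 6 tested, and of 7 smooth muscle and pericyte markers 2. Over all tested rows 9.64% were called higher in CCl4. No marker was listed at 0 in any library. Transcripts of the mitochondrial genome took 52.0% to 53.2% of the FPKM sum in CCl4 and 48.6% to 50.7% in control libraries. The part of these cell type and mitochondrial differences in the results below was not tested, and in such bulk RNA fewer cells of a type and less RNA per cell cannot be told apart. FPKM keeps no fragment counts, so the depth behind each value is unknown.

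As background, translation starts when the cap-binding eIF4 factors recruit a small ribosomal subunit that already carries eIF1, eIF1A, eIF3, eIF5 and the initiator tRNA held by eIF2. The complex scans to a start codon, eIF5B joins the large subunit, and the elongation factors eEF1A and eEF2 then bring in aminoacyl-tRNAs and move the ribosome along. Cells throttle the process mainly at eIF2, through phosphorylation of its alpha subunit, at eIF4E, through binding proteins that mTORC1 releases, and at eEF2, through its own kinase. Heart muscle adjusts protein synthesis through the same switches during growth and atrophy. All values below are transcript levels, and neither protein nor phosphorylation was measured.

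Of the 60 translation factor genes tested, 29 fell and 3 rose at an adjusted p under 0.05 in limma (48.3% and 5.00%), and another 28 were not called. Over all 10995 tested rows 31.8% were called, 22.2% lower and 9.64% higher. The falls spanned 14.9% to 60.2% of the control mean, with a median of 30.5%. The 3 CCl4 libraries lay below all 3 control libraries for 40 of the 60 and above them for 3, where this held for 34% and 14.7% of all tested rows. The median log2 fold change, CCl4 minus control on the log2(FPKM + 1) scale, was -0.25 over the 60 and -0.087 over all tested rows. Summed over the 67 genes, FPKM was 2060.73 to 2149.41 in CCl4 and 2615.44 to 2867.79 in control libraries. Eef1a1, Eef1a2 and Eef2 alone made up 45.6% to 47.1% of that sum in CCl4 and 45.7% to 48.8% in control libraries.

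**Figure D1:**
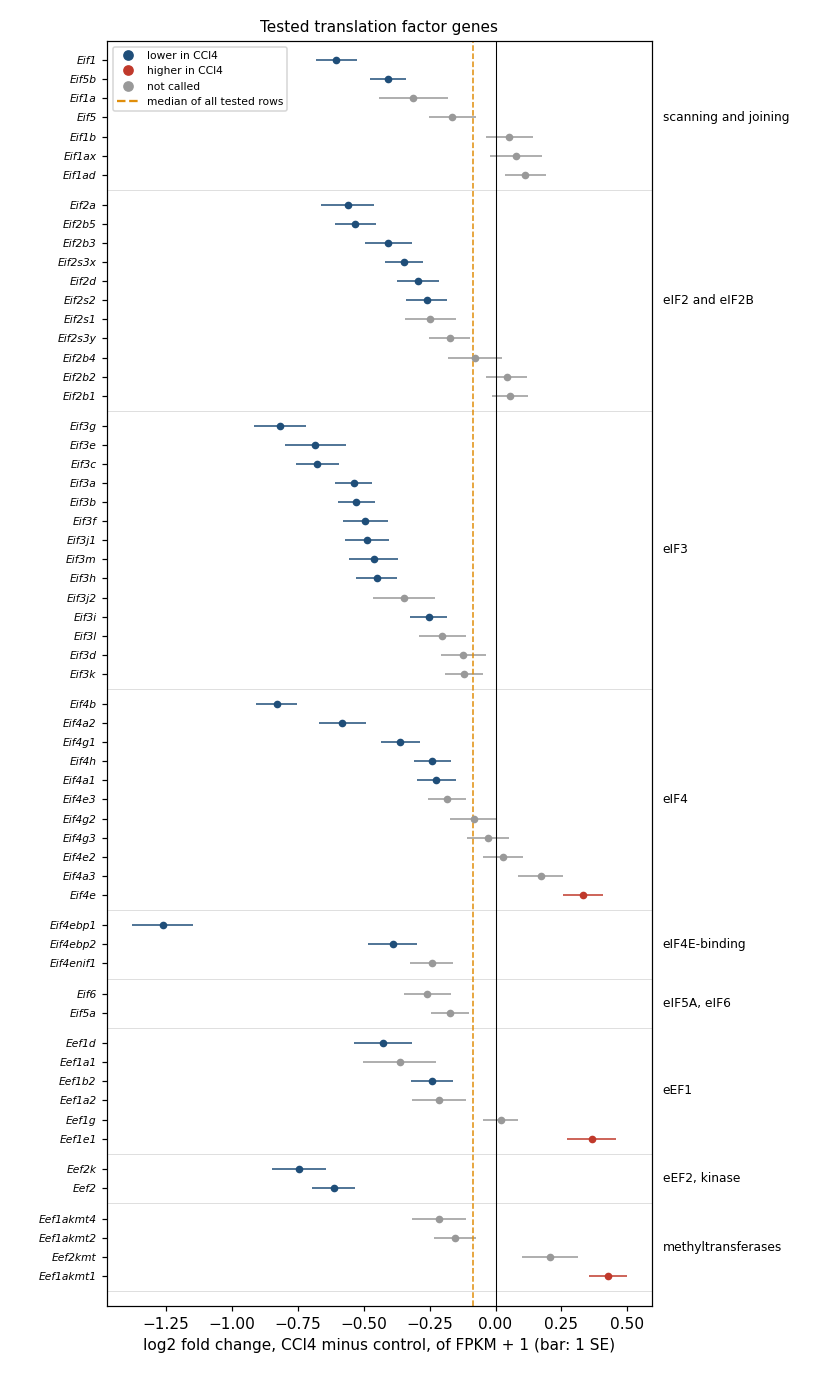
Log2 fold change (CCl4 minus control, of FPKM + 1) with 1 SE for the 60 tested genes, grouped by role; colours mark genes called lower, called higher or not called in limma, and the dashed line is the median of all tested rows at -0.087. Eif4ebp1 lies farthest to the left at -1.26 and the 14 eIF3 subunits all lie left of 0.

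Lower calls outnumbered higher calls at each level of expression. Among genes with a mean of 20 to 100 FPKM, 13 of 18 translation factor genes were called lower and 0 higher, against 34.6% and 13.9% of 1065 rows at that level. Between 5 and 20 FPKM 12 of 29 were lower and 2 higher, against 26.8% and 10.8% of 3570 rows. Between 1 and 5 FPKM 2 of 9 were lower and 1 higher, against 16.9% and 7.86% of 6080 rows. At 100 FPKM and above 2 of 4 were lower and 0 higher, against 31.1% and 17.5% of 280 rows.

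How the libraries are scaled sets how many genes are called. With FPKM rescaled to a common sum (TPM) 45 of 62 tested genes were lower and 2 higher, where 34.9% of all rows were lower and 5.39% higher. With the mitochondrial rows removed first it was 37 of 60 lower and 3 higher (28.5% and 7.28% of all rows). With trimmed-mean scaling (TMM) it was 22 lower and 4 higher (14.6% and 15.5% of all rows), and with median-ratio scaling also 22 and 4 (14.3% and 15.6%). The median of the translation factor genes lay 0.15 to 0.187 log2 units below that of all rows under these 4 scalings and 0.164 below it in FPKM as deposited. The number of genes called higher was 1 without CCl4 replicate 3 and 1 without control replicate 2. It was 3 without each of the other 4 libraries, and 22 to 31 genes were called lower whichever library was left out.

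**Figure D2:**
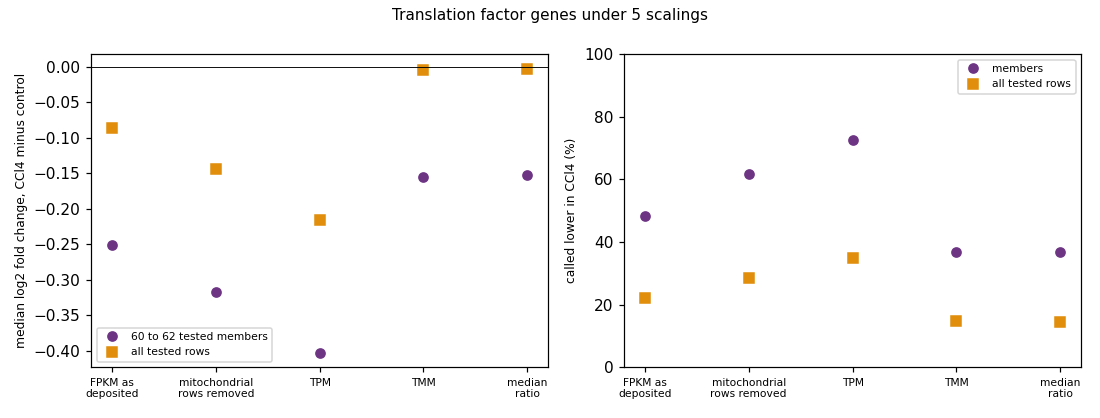
Left, median log2 fold change (CCl4 minus control) of the translation factor genes (circles) and of all tested rows (squares) for FPKM as deposited, mitochondrial rows removed, TPM, TMM and median-ratio scaling; right, percent called lower in CCl4. The share called lower was 48.3%, 61.7%, 72.6%, 36.7% and 36.7% for translation factor genes and 22.2%, 28.5%, 34.9%, 14.6% and 14.3% for all rows.

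Some of these genes have near-identical copies elsewhere, between which a counter can divide reads. Of the 31-base words in the longest coding transcript of each tested gene, over 20% also occurred in transcripts of other genes for 14 of 60, and 9 of the 29 genes that fell are among them. These 9 are Eef2 (23.2%), Eif1 (37.2%), Eif2s2 (32.1%), Eif2s3x (36.9%), Eif3e (42.0%), Eif3h (37.4%), Eif3j1 (41.3%), Eif3m (53.7%) and Eif4a1 (67.5%), and their values are uncertain to that extent. Eef1a1 (72.3%), Eef1g (68.0%), Eif4a3 (44.8%), Eif3j2 (94.9%) and Eef1akmt4 (33.8%) are the others. For 13 of the 29 that fell the share was under 5%. Exons of some genes overlap exons of genes on the opposite strand, among them Eif3d with the antisense RNA Gm17638 (43.3% of its exonic bases), Eif3j1 with Spg11 (19.0%) and Eif5b with Rev1 (16.8%). The libraries keep strand, but the labels do not say whether the authors' counting used it.

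Promoters of these genes were searched for motifs of factors and pathways that act on translation genes. RefSeq promoter sequences on GRCm38.p6, 250 bases before to 50 after each start site, matched 51 of the 67 genes. The E-box CACGTG, a palindrome that MYC, USF and related factors bind, occurred in 12 of the 47 tested genes with an entry (25.5%), in 7 of 23 that fell, in 4 of 22 that were not called and in 1 of 2 that rose. It occurred in 12.2% of 8078 tested genes with an entry and in 10.1% of the 978 with a mean of at least 20 FPKM. The ATF4 element TGATGNAA, on either strand, occurred in 2 of 47 (4.26%), Eef2k and Eif2s3x, against 2.61% of tested genes, and overlapped no E-box. A gene with several start sites counts once, and in Eef2k the ATF4 element and the E-box lie before different start sites. A C within 5 bases of the start site that opens a run of at least 5 bases, each C or T, as in the terminal oligopyrimidine tract through which mTORC1 controls translation of many of these messages, occurred in 11 of 47 (23.4%) against 24.1% of tested genes. That pyrimidine run occurred in 5 of 23 genes that fell, in 6 of 22 that were not called and in 0 of 2 that rose. A match is a run of letters and not a site shown to be bound. The pyrimidine search rests on annotated start sites and matched 24.1% of tested genes. It can miss tracts and can count runs that are not tracts, so it does not tell whether these genes carry them more often. Every tested gene with an E-box before a start site is shown, with the E-box in capitals, 5′ to 3′ on the strand of the gene, so that genes that fell, rose and were not called can be set side by side. In Eif3a, which fell, the E-box is not before the start site and is not shown.
Eef2, chr10:81176576-81176605, + strand: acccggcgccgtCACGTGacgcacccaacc
Eef2k, chr7:120842788-120842817, + strand: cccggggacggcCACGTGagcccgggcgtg
Eif4e, chr3:138527192-138527221, + strand: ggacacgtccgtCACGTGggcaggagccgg
Eif4e, farther from the start, chr3:138527028-138527057, + strand: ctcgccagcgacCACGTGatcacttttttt
Eif4g1, chr16:20672661-20672690, + strand: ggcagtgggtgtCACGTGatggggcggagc
Eif4a1, chr11:69672595-69672624, - strand: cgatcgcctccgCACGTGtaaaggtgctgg
Eif3f, chr7:108934335-108934364, + strand: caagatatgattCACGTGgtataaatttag
Eif4h, chr5:134639488-134639517, - strand: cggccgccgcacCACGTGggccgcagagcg
Eif1b, chr9:120492570-120492599, + strand: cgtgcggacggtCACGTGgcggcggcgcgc
Eif3k, chr7:28981915-28981944, - strand: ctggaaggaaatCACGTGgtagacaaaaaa
Eef1akmt4, chr16:20611497-20611526, + strand: tgacggaagttcCACGTGtttgtgtggagc
Eif5a, chr11:69920791-69920820, - strand: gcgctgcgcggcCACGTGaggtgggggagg
Eif5a, another start site, chr11:69921443-69921472, - strand: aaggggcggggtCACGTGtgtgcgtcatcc
The E-box began 43 bases before the start site in Eef2, 31 in Eef2k, 54 in Eif4g1, 189 in Eif4a1, 68 in Eif3f and 96 in Eif4h, all of which fell. Eif4e, which rose, has an E-box 64 and another 228 bases before the same start site. No E-box was found at its other start site. In the genes that were not called it began 24 bases before the start site in Eif1b, 44 in Eif3k, 92 in Eef1akmt4 and from 74 to 185 in Eif5a, which has several start sites. The start-site windows of 3 genes that fell are shown with the pyrimidine run in capitals, from 15 bases before the start site to 15 from it on.
Eif3f, chr7:108934400-108934429, + strand: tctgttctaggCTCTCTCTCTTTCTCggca
Eif2s3x, chrX:94212637-94212666, - strand: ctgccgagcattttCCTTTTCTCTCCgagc
Eif2b5, chr16:20498802-20498831, + strand: ccttcctctttCTCTCCCTgcaactacacc
The runs were 15, 12 and 8 bases long, and the longest of these belongs to Eif3f, which also carries an E-box. Genes that were not called had such runs too, of 12 bases in Eif2s3y and 10 in Eef1a1.

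The largest fall was that of Eif4ebp1, which encodes the main eIF4E-binding protein, a repressor that keeps eIF4E from its scaffold until mTORC1 phosphorylates it. Eif4ebp1 (chromosome 8, 27260329 to 27276674 in GRCm38) had 15.06, 14.99 and 15.58 FPKM in CCl4 libraries and 33.81, 45.91 and 35.00 FPKM in control libraries. The CCl4 libraries lay close together and far below the lowest control library. The log2 fold change was -1.26 ± 0.12 (SE; adjusted p = 0.000326), a mean 60.2% below control. Eif4ebp2, its paralog with the same role, had 9.91, 11.40 and 11.48 FPKM in CCl4 and 16.23, 13.57 and 14.13 FPKM in control libraries. It fell by 0.39 ± 0.094 on the log2 scale (adjusted p = 0.0161), and the groups did not overlap. Eif4ebp3 was at 0.37 ± 0.15 FPKM in CCl4 and 0.41 ± 0.079 FPKM in control libraries (SD, n = 3 each) and was not tested. Eif4enif1, the shuttling protein that carries eIF4E into the nucleus, had 4.43 to 5.10 FPKM in CCl4 and 5.42 to 6.23 FPKM in control libraries and was not called (adjusted p = 0.0535).

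Eif4e, the cap-binding protein itself, rose while its repressors fell. It had 19.46, 19.28 and 20.02 FPKM in CCl4 and 16.66, 14.86 and 14.61 FPKM in control libraries, with all CCl4 libraries above all control libraries. The log2 fold change was 0.33 ± 0.077 (SE; adjusted p = 0.0138), a ratio of means of 1.27. The call was lost without CCl4 replicate 3 or control replicate 2 (adjusted p up to 0.0581) and as TPM (0.19, adjusted p = 0.133). The summed FPKM of the 3 eIF4E-binding protein genes per FPKM of Eif4e, a ratio that no library scaling changes and that was chosen after its values were seen, was 1.29, 1.39 and 1.38 in CCl4 and 3.02, 4.03 and 3.39 in control libraries. The highest CCl4 ratio was thus well under the lowest control ratio, and the CCl4 mean was 0.389 times the control mean. Relatives of eIF4E were not called. Eif4e2, a repressive relative of eIF4E, had 3.81 to 4.32 FPKM in CCl4 and 3.78 to 4.18 FPKM in control libraries (adjusted p = 0.796). Eif4e3 had 20.83 to 22.43 FPKM in CCl4 and 23.34 to 25.54 FPKM in control libraries (-0.18 ± 0.074, adjusted p = 0.0886).

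**Figure D3:**
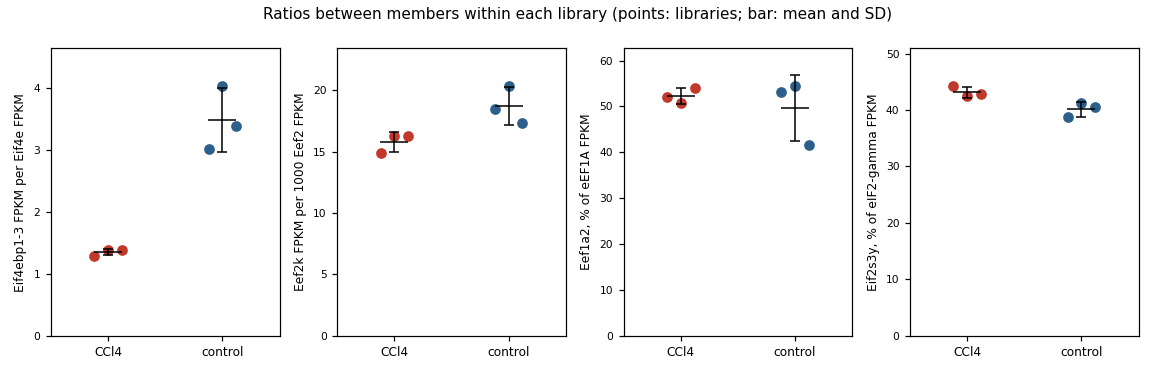
FPKM ratios within each library, CCl4 left of control (points are libraries, bars the mean and SD): summed Eif4ebp1, Eif4ebp2 and Eif4ebp3 per Eif4e, Eef2k per 1000 Eef2, Eef1a2 as a percent of both eEF1A genes, and Eif2s3y as a percent of both eIF2-gamma genes. The eIF4E-binding protein ratio was 1.29 to 1.39 in CCl4 and 3.02 to 4.03 in control libraries, while the Eef1a2 share overlapped.

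Of the 11 genes grouped as cap-binding eIF4 factors, 5 fell, 1 rose and 5 were not called, with a median log2 fold change of -0.18. Over all tested rows 22.2% were lower and 9.64% higher, and the share of these genes that rose (9.09%) was near the latter. With TMM scaling 3 were lower and 2 higher, where 14.6% and 15.5% of all rows were. The calls of Eif4a1 and Eif4h were lost without any 1 library other than control replicate 1 (adjusted p up to 0.14 and 0.0858), and also with TMM and median-ratio scaling. Eif4b, which stimulates the eIF4A helicase, had 32.10, 33.66 and 33.15 FPKM in CCl4 and 55.02, 63.08 and 60.26 FPKM in control libraries. It fell by 0.83 ± 0.078 on the log2 scale (SE; adjusted p = 0.000349), the largest fall among these 11. Its relative Eif4h had 17.48 to 18.91 FPKM in CCl4 and 21.71 to 21.98 FPKM in control libraries (-0.24, adjusted p = 0.0321). Of the helicases, Eif4a2 had 54.34, 55.22 and 52.52 FPKM in CCl4 and 75.65, 91.07 and 77.87 FPKM in control libraries and fell by 0.58 ± 0.089 (adjusted p = 0.0026). Eif4a1 had 25.60 to 26.79 FPKM in CCl4 and 28.83 to 31.63 FPKM in control libraries (-0.22, adjusted p = 0.0477), and Eif4a-ps4, a pseudogene that holds 66.3% of the words of Eif4a1, was listed at 22.62 to 23.89 FPKM in CCl4 and 24.42 to 27.81 FPKM in control libraries. Eif4a3, which marks spliced exon junctions and is not part of the cap complex, had 14.31 to 15.70 FPKM in CCl4 and 12.11 to 14.39 FPKM in control libraries (0.17, adjusted p = 0.157). It was called higher with TMM and median-ratio scaling.

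The scaffold Eif4g1, which bridges eIF4E, eIF4A and eIF3, had 37.24, 40.65 and 40.62 FPKM in CCl4 and 52.91, 50.15 and 50.01 FPKM in control libraries. The groups were well apart, and Eif4g1 fell by 0.36 ± 0.074 on the log2 scale (SE; adjusted p = 0.00841). Its relatives did not pass. Eif4g2, which lacks the eIF4E site and was the most abundant of the eIF4 genes, had 65.60 to 75.30 FPKM in CCl4 and 70.59 to 81.57 FPKM in control libraries (adjusted p = 0.501). Eif4g3 had 3.41 to 4.02 FPKM in CCl4 and 3.76 to 4.03 FPKM in control libraries (adjusted p = 0.795).

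Of the 14 tested subunits of eIF3, the large scaffold on the small ribosomal subunit, 10 fell, none rose and 4 were not called (22.2% of all tested rows were lower). All 14 had a log2 fold change below 0 (median -0.47, from -0.82 to -0.12). In 12 of the 14 the CCl4 libraries lay below every control library, where this held for 34% of all tested rows. With TMM and with median-ratio scaling 9 of 14 were called lower (14.6% and 14.3% of all rows) and all 14 stayed below 0. As TPM all 14 were called lower, where 34.9% of all rows were. Levels per length ranged from 5.82 FPKM for Eif3j2 to 86.4 FPKM for Eif3h as means over the 6 libraries.

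Eif3g, an RNA-binding subunit active in scanning, had 16.65, 15.79 and 15.74 FPKM in CCl4 and 26.35, 33.55 and 27.72 FPKM in control libraries, the largest fall in the complex (-0.82 ± 0.099, SE; adjusted p = 0.000999). The core subunit Eif3c had 25.72, 27.08 and 26.55 FPKM in CCl4 and 40.76, 46.82 and 41.18 FPKM in control libraries and fell by 0.68 ± 0.08 (adjusted p = 0.000919). The core subunits Eif3a and Eif3b fell by 0.54 ± 0.069 and 0.53 ± 0.069 (adjusted p = 0.00131 and 0.00136). In all 3 core genes no CCl4 library reached the lowest control library. Eif3e had 11.14, 9.06 and 9.96 FPKM in CCl4 and 14.22, 18.13 and 18.02 FPKM in control libraries (-0.68 ± 0.11, adjusted p = 0.00386). Eif3f and Eif3h, a pair that share a fold of deubiquitinases, had 27.97 to 28.91 and 71.19 to 74.70 FPKM in CCl4 and 37.67 to 44.91 and 92.70 to 104.73 FPKM in control libraries. They fell by 0.49 and 0.45 on the log2 scale (adjusted p = 0.0044 and 0.00432). Eif3m fell by 0.46 (adjusted p = 0.00753).

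Of the remaining eIF3 subunits, Eif3j1 fell about as much as Eif3f, and the others changed less than those above. Eif3i had 12.15 to 12.87 FPKM in CCl4 and 14.96 to 15.75 FPKM in control libraries (-0.25, adjusted p = 0.0261), a call lost without CCl4 replicate 2, CCl4 replicate 3, control replicate 2 or control replicate 3 (adjusted p up to 0.103). The cap-binding subunit Eif3d had 7.62 to 8.48 FPKM in CCl4 and 7.91 to 9.37 FPKM in control libraries and was not called (-0.12, adjusted p = 0.299). Neither was Eif3k (-0.12, adjusted p = 0.228) nor Eif3l (-0.20, adjusted p = 0.116), which sit at the edge of the complex. The loosely bound subunit eIF3j comes from a pair of near-identical genes. Eif3j1 fell by 0.49 ± 0.082 (adjusted p = 0.00402), and Eif3j2 had 4.64 to 5.44 FPKM in CCl4 and 5.36 to 7.54 FPKM in control libraries (-0.35, adjusted p = 0.0562, and 0.00844 without control replicate 1).

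The factor eIF2 brings the initiator tRNA, and eIF2B reloads it with GTP. Their genes were grouped with Eif2a and Eif2d, which belong to neither factor and which both fell. Of these 11 genes 6 fell and none rose (median log2 fold change -0.26), where 22.2% of all tested rows were lower and 9.64% higher. With TMM scaling 4 of 11 were lower, where 14.6% of all rows were. Eif2b5, the catalytic subunit of eIF2B, had 14.11, 13.70 and 13.76 FPKM in CCl4 and 20.53, 21.95 and 19.05 FPKM in control libraries. It fell by 0.53 ± 0.077 on the log2 scale (SE; adjusted p = 0.00202), with the groups far apart. Eif2b3, which forms the catalytic part with it, had 1.11 to 1.34 FPKM in CCl4 and 1.76 to 2.14 FPKM in control libraries (-0.41, adjusted p = 0.0107). The regulatory subunits Eif2b1, Eif2b2 and Eif2b4 were not called (0.055, 0.042 and -0.077; adjusted p = 0.567, 0.704 and 0.593), and their groups overlapped. In these libraries, then, the genes of the catalytic pair were called and those of the regulatory subunits were not, a difference that was not tested.

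Within eIF2 itself, Eif2s1, the alpha subunit whose phosphorylation shuts initiation down, had 5.56, 6.21 and 6.01 FPKM in CCl4 and 7.17, 8.23 and 6.37 FPKM in control libraries. It was not called (-0.25, adjusted p = 0.0828), though it was without control replicate 3 (adjusted p = 0.0405). The beta subunit Eif2s2 had 7.20 to 7.26 FPKM in CCl4 and 8.30 to 9.68 FPKM in control libraries (-0.26, adjusted p = 0.0352). The gamma subunit has a copy on each sex chromosome. Eif2s3x had 13.41, 14.10 and 14.91 FPKM in CCl4 and 18, 18.35 and 18.35 FPKM in control libraries and fell by 0.35 ± 0.072 (SE; adjusted p = 0.00881). Eif2s3y had 10.65, 10.41 and 11.13 FPKM in CCl4 and 11.37, 12.91 and 12.47 FPKM in control libraries (-0.17, adjusted p = 0.114). The Y copy supplied 42.5% to 44.3% of the gamma FPKM in CCl4 and 38.7% to 41.3% in control libraries. This share was outside the planned measures and was not tested. Eif2a, an alternative initiator-tRNA factor that is not part of eIF2, showed the largest fall of the 11 genes on the log2 scale (-0.56, adjusted p = 0.00502). It had 5.56 to 6.28 FPKM in CCl4 and 7.96 to 10.31 FPKM in control libraries. As a percent of the control mean Eif2b3 fell slightly more (37.4% against 36.0%). Eif2d, which acts on ribosomes after termination, had 2.53 to 2.84 FPKM in CCl4 and 3.34 to 3.86 FPKM in control libraries (-0.29, adjusted p = 0.025). The call of Eif2s2 was lost without any 1 library other than control replicate 1 (adjusted p up to 0.118). That of Eif2d was lost without any CCl4 library or control replicate 2 (adjusted p up to 0.0888), and both were lost with TMM and median-ratio scaling.

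Of the 7 genes for scanning and subunit joining, 2 fell and none rose (median -0.16), where 22.2% of all tested rows were lower, a share near that of these genes. Eif1, which keeps the scanning ribosome from stopping at wrong codons, had 136.98, 133.60 and 133.87 FPKM in CCl4 and 196.09, 221.51 and 199.21 FPKM in control libraries. The CCl4 values lay close together and far under the lowest control value, and Eif1 fell by 0.60 ± 0.077 on the log2 scale (SE; adjusted p = 0.00129). Its paralog Eif1b had 17.51 to 20.59 FPKM in CCl4 and 17.13 to 19.47 FPKM in control libraries (0.052, adjusted p = 0.678). Eif5b, the GTPase that joins the subunits, had 5.94, 6.38 and 5.91 FPKM in CCl4 and 8.45, 8.32 and 8.40 FPKM in control libraries (-0.41 ± 0.069, adjusted p = 0.00398). Eif1ax and Eif1a, which encode near-identical forms of eIF1A, had 8.93 to 10.17 and 2.67 to 3.01 FPKM in CCl4 and 8.30 to 10.43 and 3.04 to 4.86 FPKM in control libraries. Neither was called (adjusted p = 0.574 and 0.104), though Eif1a was without control replicate 2 (adjusted p = 0.0447). Eif1ad, an eIF1A-related gene, had the highest log2 fold change of these 7 (0.11, adjusted p = 0.286). Eif5, which triggers GTP hydrolysis by eIF2, had 17.47 to 21.32 FPKM in CCl4 and 20.78 to 22.63 FPKM in control libraries (-0.16, adjusted p = 0.192).

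Eif5a encodes the hypusine-bearing factor that helps stalled ribosomes form peptide bonds. It had 71.47 to 77.17 FPKM in CCl4 and 82.14 to 86.83 FPKM in control libraries and was not called (-0.17, adjusted p = 0.0999). Eif6, which keeps the subunits apart, had 5.39 to 6.79 FPKM in CCl4 and 7.15 to 7.77 FPKM in control libraries (-0.26, adjusted p = 0.0583). In both genes every CCl4 library lay below every control library, and both were called lower as TPM and with the mitochondrial rows removed. Eif5a2 was at 0.39 to 0.73 FPKM in CCl4 and 0.45 to 0.81 FPKM in control libraries and was not tested.

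Elongation factor 2 and the kinase that inhibits it fell together. Eef2 (chromosome 10, 81176631 to 81182498), which moves the ribosome by a codon at a time and was the most abundant of the 67 genes, had 310.43, 307.65 and 332.14 FPKM in CCl4 and 452.45, 518.34 and 486.36 FPKM in control libraries. The groups were far apart, and the log2 fold change was -0.61 ± 0.082 (SE; adjusted p = 0.00146). Eef2k (chromosome 7, 120842831 to 120907450) had 4.61, 5.01 and 5.40 FPKM in CCl4 and 8.37, 10.55 and 8.42 FPKM in control libraries and fell by 0.75 ± 0.1 (adjusted p = 0.00165). Per 1000 FPKM of Eef2 there were 14.9 to 16.3 FPKM of Eef2k in CCl4 and 17.3 to 20.4 FPKM in control libraries. In these libraries the kinase transcript was thus lower relative to its substrate as well. This ratio was outside the planned measures and was not tested.

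**Figure D4:**
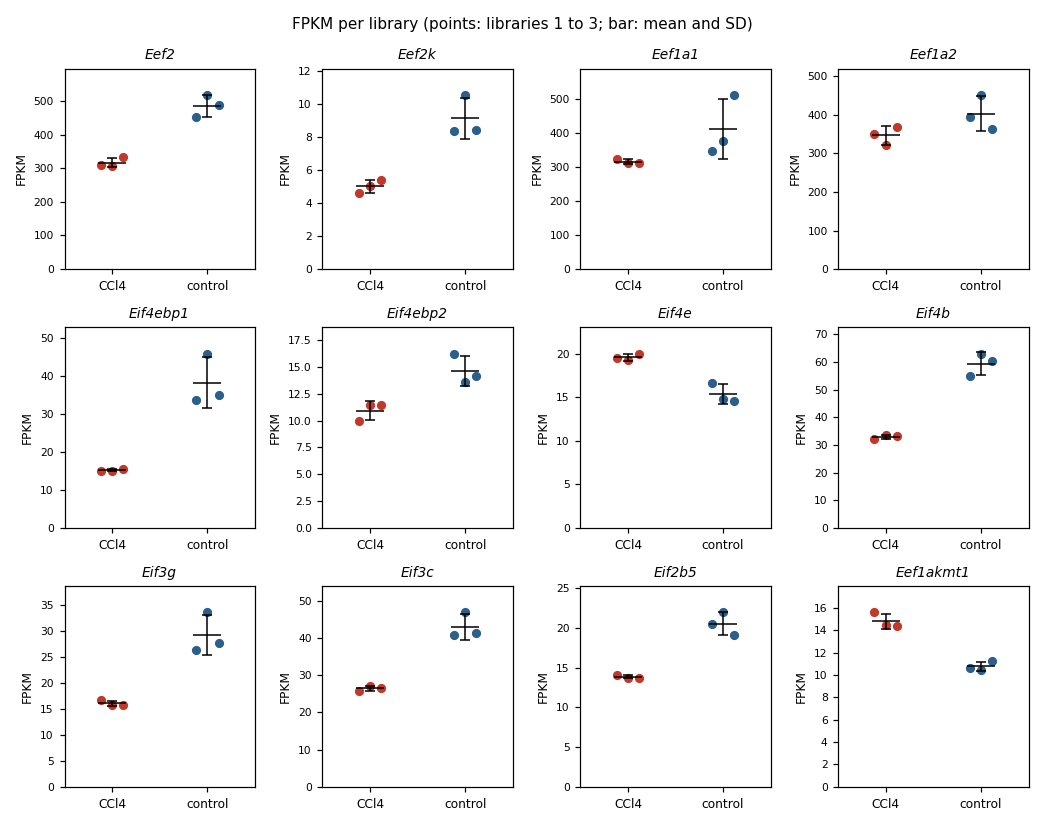
FPKM in each library for 12 translation factor genes, CCl4 left of control (points are libraries 1 to 3, bars the mean and SD, n = 3 each). Eef1a1 in control libraries is spread from 347.92 to 513.50 FPKM, and Eif4e and Eef1akmt1 are the genes shown with CCl4 above control.

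The eEF1A pair, which delivers aminoacyl-tRNA, did not pass. Eef1a1 had 324.33, 311.64 and 313.14 FPKM in CCl4 and 347.92, 378.05 and 513.50 FPKM in control libraries. Control replicate 3 stood far above the rest, and the log2 fold change was -0.36 ± 0.14 (SE; adjusted p = 0.0759). Without control replicate 1 the gene was called (adjusted p = 0.0253), and without the other libraries it was not (adjusted p up to 0.167). Eef1a2, the form known from adult muscle and neurons, had 351.49, 320.83 and 367.82 FPKM in CCl4 and 393.61, 452.24 and 363.92 FPKM in control libraries, with overlapping groups (-0.21 ± 0.1, adjusted p = 0.14). Eef1a2 made up 50.7% to 54.0% of the summed eEF1A FPKM in CCl4 and 41.5% to 54.5% in control libraries. The mean share was 2.57 percentage points higher in CCl4, and 1.52 points lower without control replicate 3.

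The exchange complex that recharges eEF1A was split. Eef1d had 14.15, 10.87 and 12.03 FPKM in CCl4 and 15.46, 18.45 and 16.78 FPKM in control libraries and fell by 0.43 ± 0.11 on the log2 scale (SE; adjusted p = 0.0198). Eef1b2 had 31.78 to 36.00 FPKM in CCl4 and 37.81 to 40.54 FPKM in control libraries (-0.24 ± 0.08, adjusted p = 0.0498). Eef1g, the structural subunit, had 67.49 to 69.21 FPKM in CCl4 and 66.38 to 68.21 FPKM in control libraries (0.019 ± 0.067, adjusted p = 0.843), and its spread within groups was the smallest of all 60 genes. Eef1e1, which belongs to the complex of aminoacyl-tRNA synthetases, rose, with 2.35, 1.76 and 1.99 FPKM in CCl4 and 1.39, 1.36 and 1.30 FPKM in control libraries (0.36 ± 0.092, adjusted p = 0.0193). These 3 calls were fragile. Eef1b2 was lost without CCl4 replicate 2, CCl4 replicate 3, control replicate 2 or control replicate 3 (adjusted p up to 0.165), Eef1d without CCl4 replicate 2, CCl4 replicate 3 or control replicate 2 (up to 0.067), and Eef1e1 without CCl4 replicate 3 or control replicate 2 (up to 0.0569). Eef1b2 and Eef1d were also lost with TMM and median-ratio scaling.

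Among enzymes that methylate elongation factors, Eef1akmt1, a lysine methyltransferase of eEF1A, rose. It had 15.60, 14.48 and 14.35 FPKM in CCl4 and 10.64, 10.42 and 11.25 FPKM in control libraries. Every CCl4 library lay above every control library, the difference was 0.43 ± 0.073 on the log2 scale (SE; adjusted p = 0.00435), and the gene was called higher under every alternative run. Eef2kmt, which methylates eEF2, had 3.10 to 4.32 FPKM in CCl4 and 2.84 to 3.15 FPKM in control libraries (0.21, adjusted p = 0.169). Eef1akmt2 and Eef1akmt4 were not called (-0.15 and -0.21; adjusted p = 0.173 and 0.142).

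Genes around these factors were read in the same test. Of 95 listed genes of translation and its control, 94 were in the table and 82 were tested; 29 were lower and 3 higher in CCl4 (22.2% and 9.64% of all tested rows), with a median log2 fold change of -0.15. With TMM or median-ratio scaling it was 18 lower and 11 higher. Over all rows 14.6% were lower and 15.5% higher with TMM, and 14.3% and 15.6% with median-ratio scaling. Without CCl4 replicate 3 it was 17 lower, without control replicate 2 19 lower, and without control replicate 1 5 higher.

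**Figure D5:**
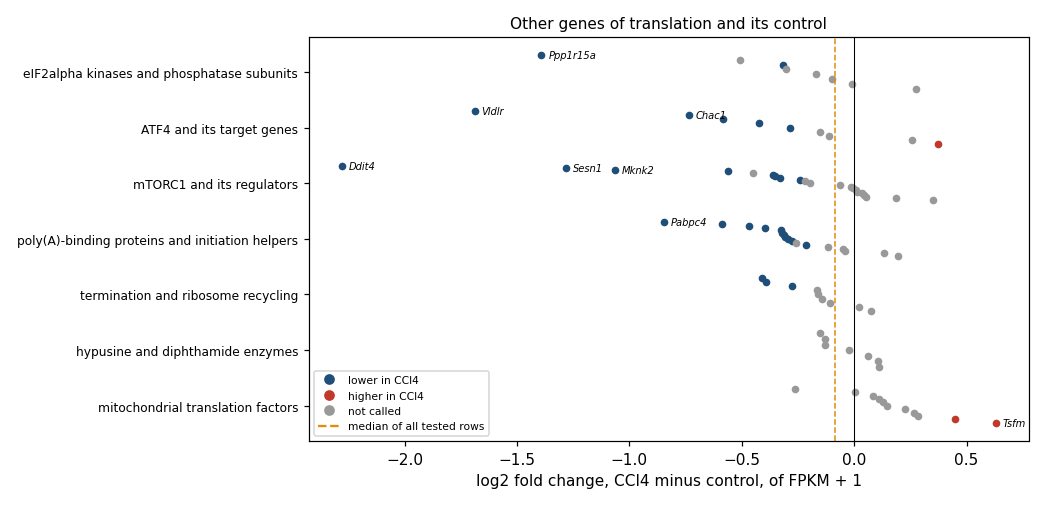
Log2 fold change (CCl4 minus control, of FPKM + 1) of 82 tested genes in 7 lists of translation and its control; colours mark genes called lower, called higher or not called, labelled genes were called with a change beyond 0.6, and the dashed line is the median of all tested rows. Ddit4 lies farthest left at -2.28 and Tsfm farthest right at 0.63.

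In a list of mTORC1, its regulators and kinases and targets that act beside or after it, 8 of 21 genes fell and none rose. Over all tested rows 22.2% were lower and 9.64% higher. Not every gene of this list acts upstream of the eIF4E-binding proteins, and Mknk2 is one that does not. With TMM or median-ratio scaling 7 were lower and 2 higher (with TMM 14.6% and 15.5% of all rows, with median ratio 14.3% and 15.6%). Ddit4, a stress-induced inhibitor of mTORC1, had 5.00, 6.95 and 7.40 FPKM in CCl4 and 38.38, 35.25 and 31.20 FPKM in control libraries (-2.28 ± 0.14, SE; adjusted p = 7.77e-05). Mknk2, a kinase that phosphorylates eIF4E, had 35.10 to 40.54 FPKM in CCl4 and 69.93 to 89.61 FPKM in control libraries (-1.06, adjusted p = 0.000448). Sesn1, another inhibitor of mTORC1, had 22.46 to 25.28 FPKM in CCl4 and 42.10 to 72.18 FPKM in control libraries (-1.28, adjusted p = 0.00201). The groups did not overlap in any of these 3 genes, which had the smallest p of the list. Castor1, Tsc1, Larp1, the mTORC1 activator Rheb and the mTORC1 target kinase gene Rps6kb1 were called lower as well. Mtor itself had 4.51 to 5.54 FPKM in CCl4 and 4.66 to 4.84 FPKM in control libraries (adjusted p = 0.763).

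Around eIF2, 2 of 8 genes for its kinases, phosphatase subunits and their activators fell, a share near the 22.2% of all tested rows. Ppp1r15a, the inducible subunit that directs dephosphorylation of eIF2-alpha, had 4.56, 4.87 and 4.09 FPKM in CCl4 and 10.30, 15.05 and 15.52 FPKM in control libraries (-1.39 ± 0.15, SE; adjusted p = 0.000515). Gcn1, which activates the amino acid-sensing kinase, fell by 0.32 (adjusted p = 0.0112). Of 9 tested genes of ATF4 and its targets, which eIF2-alpha phosphorylation induces, 5 fell and 1 rose. Over all tested rows 22.2% were lower and 9.64% higher. With TMM or median-ratio scaling 3 were lower and 2 higher (with TMM 14.6% and 15.5% of all rows, with median ratio 14.3% and 15.6%). As TPM, with 11 tested, 5 were lower and 0 higher (34.9% and 5.39% of all rows). With the mitochondrial rows removed 5 of 9 were lower and 0 higher (28.5% and 7.28%). By p in FPKM as deposited, the strongest 3 of this list were Vldlr, Slc3a2 and Chac1. Vldlr, a lipoprotein receptor, had 14.01 to 16.11 FPKM in CCl4 and 44.20 to 53.20 FPKM in control libraries (-1.69, adjusted p = 6.94e-05). The amino acid transporter subunit Slc3a2 (-0.58, adjusted p = 0.00138) and Chac1, a glutathione-degrading enzyme (-0.74, adjusted p = 0.0102), fell as well. Ddit3, a transcription factor of the same response, was the gene that rose, with 8.96 to 10.27 FPKM in CCl4 and 6.42 to 8.45 FPKM in control libraries (0.37, adjusted p = 0.0283). Ddit3 was not called higher as TPM or with the mitochondrial rows removed.

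Of 17 genes for poly(A)-binding proteins and initiation helpers 11 were lower and none higher (22.2% and 9.64% of all tested rows). With TMM or median-ratio scaling 4 were lower and 1 higher (with TMM 14.6% and 15.5% of all rows, with median ratio 14.3% and 15.6%). Pabpc4, a cytosolic poly(A)-binding protein, had 44.26, 46.25 and 47.61 FPKM in CCl4 and 85.48, 91.83 and 73.99 FPKM in control libraries (-0.84 ± 0.094, SE; adjusted p = 0.000688). Pabpc1, the general form, fell by 0.47 (adjusted p = 0.00206) and the helicase Ddx3x by 0.59 (adjusted p = 0.00275). Of 9 genes of termination and ribosome recycling 3 were lower, against 22.2% of all tested rows, and 2 with TMM or median-ratio scaling (14.6% and 14.3% of all rows). The 3 were Hbs1l, a rescue factor for stalled ribosomes (-0.41, adjusted p = 0.00678), the release factor Etf1 (-0.28, adjusted p = 0.0214) and the ubiquitin ligase Ltn1 (-0.39, adjusted p = 0.0169). None of the 7 tested enzymes that build hypusine on eIF5A or diphthamide on eEF2 was called in limma, and 0 had an unadjusted p under 0.05.

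Of 11 tested translation factors of mitochondria, which serve a separate set of ribosomes, none fell and 2 rose, where 22.2% of all tested rows were lower and 9.64% higher. The other 9 were not called, and 10 of the 11 had a log2 fold change above 0 (median 0.15). As TPM 7 of the 11 were above 0, with 2 higher and 1 lower, and with TMM or median-ratio scaling 10 were above 0, with 5 higher (15.5% and 15.6% of all rows). Tsfm, the exchange factor for mitochondrial EF-Tu, had 7.63, 6.93 and 7.16 FPKM in CCl4 and 4.66, 3.91 and 4.42 FPKM in control libraries (0.63 ± 0.082, SE; adjusted p = 0.00133). Mtif2, the mitochondrial initiation factor that places the initiator tRNA, had 8.94 to 9.47 FPKM in CCl4 and 6.02 to 6.84 FPKM in control libraries (0.45 ± 0.075, adjusted p = 0.00377). The difference between the cytosolic and the mitochondrial list was not tested.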

How the data were processed

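RNA was measured in 3 libraries of CCl4 mice and 3 of control mice. The authors deposited FPKM values, 1 column per library at 2 decimals, with StringTie 2.1.6 and GRCm38 named in the submitters' processing notes; which aligner, annotation release and strand setting they used is not given in the sources used here. Oligo(dT)-selected RNA was read from both ends, per the labels' protocols. No counts were used, so no count test was run and depth is unknown.

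Values were transformed to log2(FPKM + 1), which understates changes of low genes. The 10995 rows with a mean of at least 1 FPKM were fitted in limma 3.58.1 (R 4.3.3; lmFit, eBayes with trend, no covariate), two-sided, with Benjamini-Hochberg adjustment over all of them; calls are at an adjusted p under 0.05. The script was tested on simulated data. The design text gives 3 mice per group, and the labels do not tie a library to a mouse, so p-values measure the spread between libraries. The members, lists and tests were chosen with earlier results of these data known. The genes to name were every called member, a fixed list of factors whatever their result, the extremes of each role, and up to 3 called genes of each surrounding list. Eif1b, Eif2b2, Eif2b4, Eif3k, Eif3l, Eif4a3, Eif4enif1, Eif4a-ps4, Eef1akmt2, Eef2kmt, Ddit3, Mtor, Castor1, Tsc1, Larp1, Rheb, Rps6kb1 and Ddx3y, where outside it, were added after their values were seen. Positions are from GENCODE M21 and promoters from RefSeq, both on GRCm38. TMM factors were computed without edgeR and unweighted, with 30% of ratios and 5% of levels trimmed. Alternatives were another pseudocount, other filters, 4 scalings, no trend, the replicate number as a block, and leaving out each library.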

Additional observations from a re-analysis of the deposited data

How the results depend on the processing

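Of the 32 genes called, 23 kept their call under each of the 15 alternatives that gave them a value, 22 of those that fell and Eef1akmt1, and no called gene changed sign. Between 22 and 31 genes were lower and between 1 and 3 higher when 1 library was left out. As TPM 45 were lower. The median of the tested genes, -0.25, was -0.29 with a pseudocount of 0.1, -0.40 as TPM, -0.16 with TMM, -0.15 by median ratio, -0.32 without mitochondrial rows, and -0.28 to -0.23 when 1 library was left out. The surrounding genes had 18 lower and 11 higher with TMM (14.6% and 15.5% of all rows) and the same numbers with median-ratio scaling (14.3% and 15.6%). They had 17 to 26 lower and 2 to 5 higher when 1 library was left out. The higher share of Eef1a2 in eEF1A (2.57 points) was -1.52 to 4.97 points when 1 library was left out.

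With the replicate number as a block 22 genes were lower and 3 higher (16.3% and 7.83% of all rows). The calls of Eef1b2, Eif2d, Eif3i, Eif4h, Eef1d, Eif4a1 and Eif2s2 were then lost (adjusted p 0.0517 to 0.116). Deviations of same-numbered libraries from their group means correlated at -0.064, 0.0461 and -0.038. Those of differently numbered libraries correlated at -0.0975 to 0.123. These values show no shared shift by replicate number but cannot tell whether the libraries were paired. With no filter 24 were lower and 2 higher (6.54% and 2.99% of all rows), and at a mean of at least 5 FPKM 30 of 51 were lower (30.7% of all rows).

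Among genes not called, 10 changed sign under some alternative, none with an adjusted p under 0.18. As TPM the log2 fold changes were -0.103 for Eif2b2, -0.0981 for Eif1b, -0.0226 for Eif1ad, -0.105 for Eif4e2, -0.0871 for Eif2b1, -0.0662 for Eif1ax and -0.135 for Eef1g. With the mitochondrial rows removed they were -0.0246 for Eif2b2, -0.0183 for Eif1b, -0.0305 for Eif4e2, -0.0105 for Eif2b1 and -0.0534 for Eef1g. With TMM they were 0.0237 for Eif4g2, 0.0557 for Eif4g3 and 0.0228 for Eif2b4, and with median-ratio scaling 0.0264, 0.0579 and 0.0253 in that order of genes. With 1 library left out they were between -0.0149 and 0.0756 for Eif2b2, -0.0126 and 0.104 for Eif1b, -0.00793 and 0.0648 for Eif4e2, -0.0653 and 0.0281 for Eif4g3, and -0.16 and 0.0291 for Eif2b4. Of the genes not called, 17 were called in some alternative, most often as TPM. The cause of these changes was not tested. With 3 libraries a group and no fragment counts, precision rests on the spread between libraries alone.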
